A study of Mus musculus with 8 samples.

Results

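The mRNAs of the proteins that build the cytosolic ribosome were followed in wound macrophages of the mouse, 3 days after injury set against 1 day after injury. They were chosen by symbol: the names Rps and Rpl followed by a number, with Rplp0, Rplp1, Rplp2 and Rpsa, and without pseudogenes. Of 55414 genes in the count table, 89 had such a symbol, and the 79 with a mean of at least 5 CPM (counts scaled to the total of the library) over the 8 libraries are described, 32 of the small subunit and 47 of the large. Bulk RNA was sequenced from cells of wound-bed skin that had been held on magnetic beads against F4/80, a surface protein of macrophages. There were 5 libraries of day 3 (a to e) and 3 of day 1 (a to c), and the protocol states that every library pooled 6 wounds of 3 mice. The same protocol names 6 samples per time point, and why there are fewer libraries is not stated. Both groups were wounded and no other treatment is named; strain, genotype, sex and age are not given in the sources used here. Whether a mouse gave wounds to more than 1 pool is not stated, so the p-values measure the spread between pools.

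A ribosome consists of a small subunit, which reads the mRNA, and a large subunit, which joins the amino acids. Most of their proteins are present in 1 copy in each ribosome, so the cell needs them in equal numbers. In mammals their mRNAs mostly begin with a C and a run of pyrimidines, the 5′ terminal oligopyrimidine (TOP) tract, through which mTORC1 and the protein LARP1 set how strongly they are translated. MYC and RNA polymerase I activity raise the making of ribosomes in growing and activated cells. In macrophages the pathway is also known through Rpl13a, which in human monocytes leaves the ribosome after interferon-gamma and silences inflammatory mRNAs.

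Total counts ran from 50515389 to 56661695 at day 3 and from 41566151 to 60289310 at day 1. The 8 macrophage markers were all present above 3 counts in both groups, and summed to between 8778 and 10688 normalised CPM at day 3 and between 8370 and 8794 at day 1. Neutrophil markers (7 of 7 above 3 counts in each group, with Ly6g at or under 3 counts in a library) summed to between 271 and 3374 normalised CPM at day 3 and between 639 and 3707 at day 1. Day 3 b and day 1 c held the highest neutrophil sums of their groups. Monocyte markers (5 of 5 in each group) summed to between 1219 and 2010 normalised CPM at day 3 and between 1933 and 2796 at day 1. Fibroblast markers (5 of 5) summed to 51.7 to 115 at day 3 and 7.35 to 33.8 at day 1, and endothelial markers (4 of 4) to 13.2 to 27.1 at day 3 and 28.6 to 66.98 at day 1. Sums for T and NK cells (6 of 6) were 83.0 to 168 at day 3 and 113 to 335 at day 1, and for dendritic cells (4 of 4) 22.6 to 133 at day 3 and 74.8 to 185 at day 1. B and plasma cell markers (3 of 5 at day 3 and 4 of 5 at day 1) summed to 17.6 to 36.1 at day 3 and 0.151 to 13.4 at day 1, keratinocyte markers (3 of 5 and 4 of 5) to 0.157 to 27.7 at day 3 and 1.29 to 2.44 at day 1, and red cell markers (4 of 4) to 2.68 to 13.5 at day 3 and 1.87 to 4.53 at day 1. All 5 markers of B and plasma cells and all 5 of keratinocytes were at or under 3 counts in at least 1 library, as were Cd3e, Cd3d, Trac, Nkg7, Pdgfra, Cdh5, Kdr, Emcn, Flt3, Zbtb46 and Alas2. The part of these cells in the ribosomal protein values was not tested. The number of genes with any count was 20557 in day 3 a, 14952 to 15359 in day 3 b to e, and 23928 to 27315 at day 1. Genes of smell, taste and related receptors (symbols beginning with Olfr, Vmn, Taar or Tas) were counted apart. Those with any count numbered 495 in day 3 a and 22 to 67 in day 3 b to e. In day 1 a to c they numbered 1032, 986 and 632. The part of this difference between libraries in the values below was not tested. Day 1 c differed from the other 7 libraries in the share of even numbers among its counts of 2 to 20, 73.0% against 81.3% to 86.0%, and many of the values below are given with and without it.

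Ribosomal protein mRNA made up a larger share of the counts at day 3 on average, and day 1 c lay among the day 3 libraries. The 79 genes together took 1.52%, 1.29%, 1.11%, 1.34% and 1.24% of all counts in day 3 a to e, and 0.801%, 0.915% and 1.24% in day 1 a to c. The groups overlapped, since day 1 c was above day 3 c and level with day 3 e. Their summed level was 12998 ± 1476 normalised CPM at day 3 (SD, n = 5) and 9858 ± 1892 normalised CPM at day 1 (SD, n = 3), a ratio of 1.32. In bulk RNA, a different share of cells with many ribosomes and a different amount of this mRNA in each cell cannot be told apart.

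**Figure D1:**
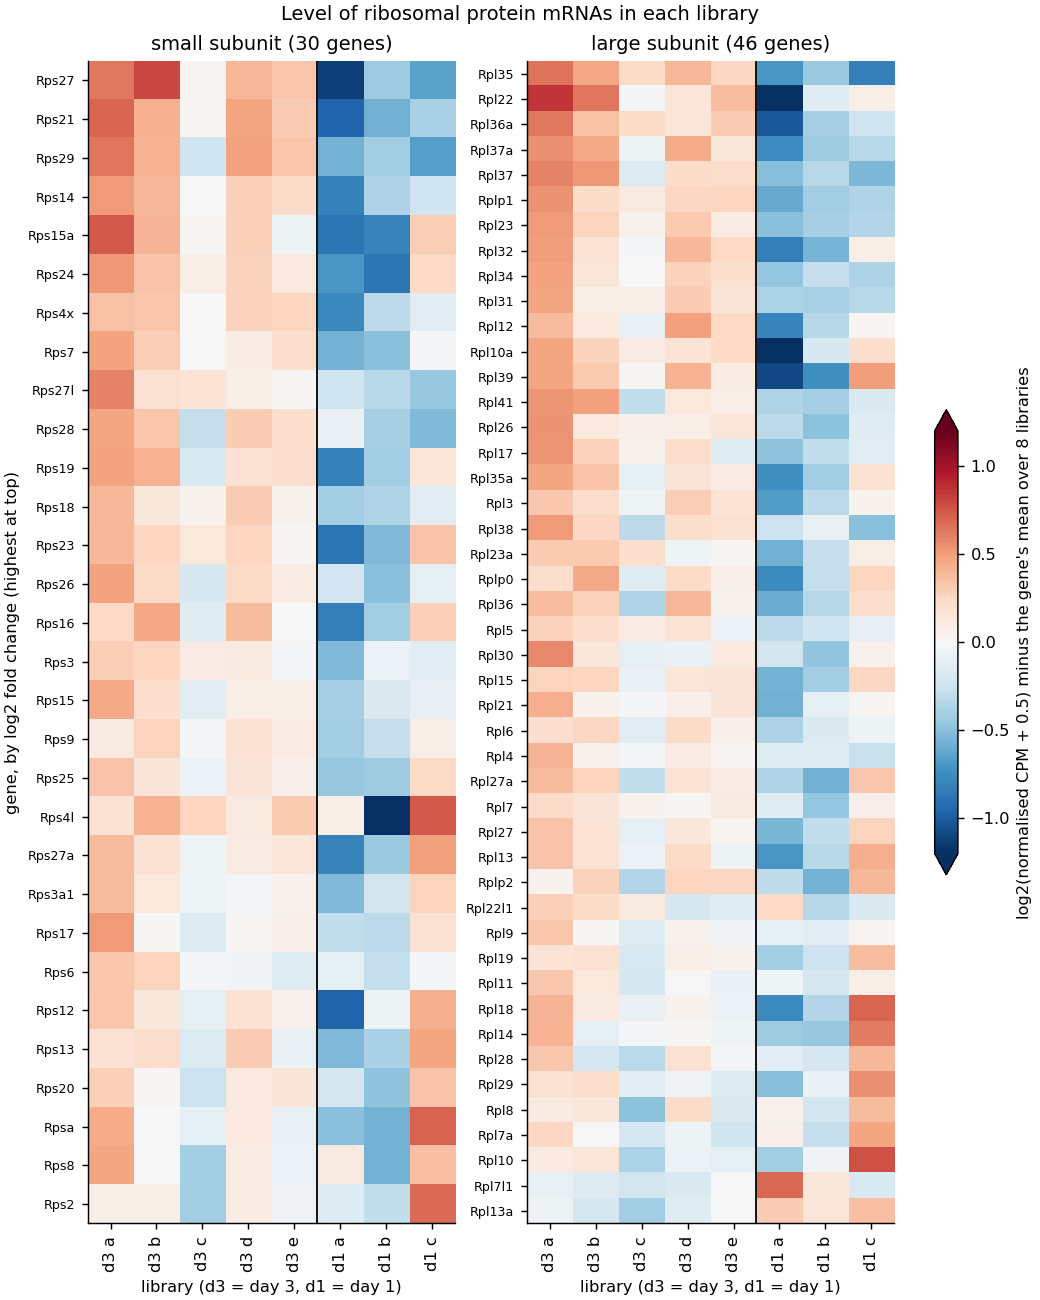
Level of 76 of the genes in each library, as log2(normalised CPM + 0.5) minus the gene's own mean over the 8 libraries, small subunit left and large subunit right, with genes ordered by fold change and the 5 day 3 libraries left of the 3 day 1 libraries. Day 1 a and b are blue for most genes, while day 1 c is blue for the genes at the top and red for the genes near the bottom.

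Gene by gene, 71 of the 79 had a positive log2 fold change (day 3 minus day 1) and 8 a negative one, with a median of 0.37. Over all 15371 genes tested the median was -0.17 and 42.9% were positive, and over the 8211 tested genes with a mean of 5 CPM or more the median was -0.06 and 46.4% were positive. With the quasi-likelihood test of edgeR, adjusted after Benjamini and Hochberg at 0.05, none of the 79 was called; of all genes 0.0% were called higher and 0.013% lower, 2 genes in all. At an unadjusted p under 0.05 there were 31 of the 79, all higher at day 3, against 5.16% of all genes. DESeq2 called 16 of the 79, all higher, against 2.48% of all genes called higher, and limma voom called 8, all higher, against 0.963%. With the stricter filter on low counts, edgeR called 2, Rps27 and Rpl35, against 0.774% of the genes then tested, and with no filter it called 4, those 2 with Rps29 and Rps14, against 0.545%.

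For 23 genes every day 3 library was above every day 1 library, against 5.31% of all genes tested and 7.98% of those with a mean of 5 CPM or more. These were 11 genes of the small subunit and 12 of the large. Day 1 c set this count: without it 60 of the 79 were separated in the same way, against 12.7% of genes with a mean of 5 CPM or more, and the median log2 fold change became 0.60. Without day 3 c, the lowest of the day 3 libraries in 63 of the 79 genes, the count was 36. Such a count can only stay or rise when a library is left out, and the share over all genes without day 3 c was not worked out. Rpl13a was the single gene with every day 3 library below every day 1 library, where the share over all genes tested was 8.76%.

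**Figure D2:**
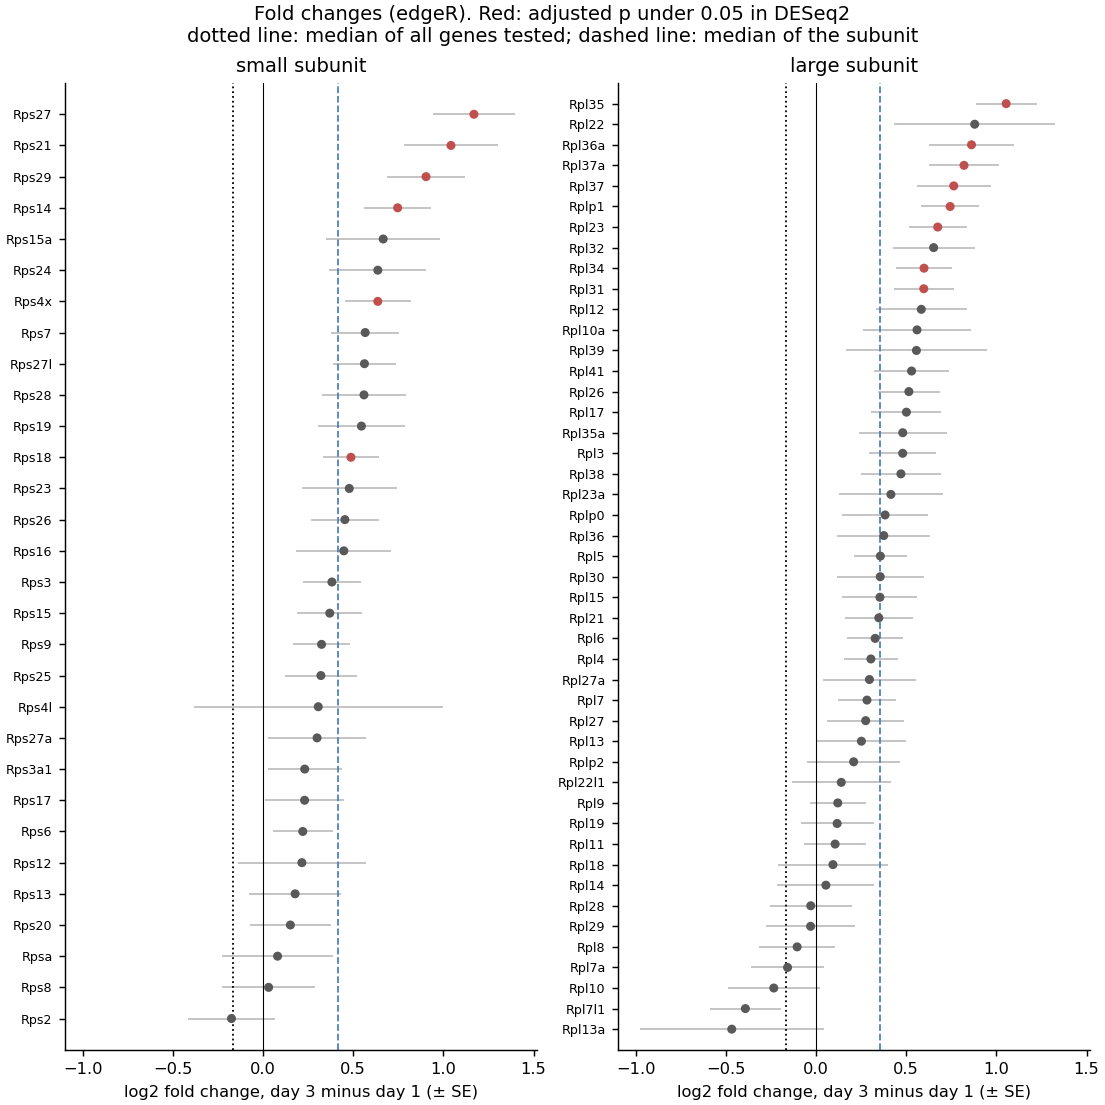
Log2 fold change of 76 of the genes, day 3 minus day 1, with a standard error worked out from the F value of edgeR. Red points had an adjusted p under 0.05 in DESeq2. The dotted line is the median of all genes tested (-0.17) and the dashed line the median of the subunit. The 14 red points lie between 0.49 and 1.17, and 68 of the 76 points lie right of 0.

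The 6 highest fold changes belonged to 3 genes of each subunit. Rps27, a zinc-binding protein of the small subunit (chromosome 3, 90119829 to 90120958, GRCm39), had 346, 391, 229, 295 and 281 normalised CPM in day 3 a to e, against 103, 166 and 143 in day 1 a to c. All 5 day 3 libraries were above the 3 of day 1, the nearest pair being day 3 c and day 1 b. Its log2 fold change was 1.17 ± 0.23 (SE), with an adjusted p of 0.077 in edgeR and 1.3e-04 in DESeq2. Rpl35, a protein at the exit of the tunnel through which the new chain leaves the large subunit (chromosome 2, 38891592 to 38895636, GRCm39), had 379, 334, 281, 318 and 286 normalised CPM in day 3 a to e, against 148, 177 and 137 in day 1 a to c. Its lowest day 3 library stood above its highest day 1 library by more than the range within day 1. The log2 fold change of Rpl35 was 1.05 ± 0.17, with an adjusted p of 0.060 in edgeR, the smallest of the 79, and 1.9e-06 in DESeq2. Of the counted exon bases of Rpl35, 66.2% are shared with its neighbours Wdr38 and Arpc5l.

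Rps21, a small protein on the outer face of the small subunit, had 44.2, 36.6, 27.6, 37.9 and 33.6 normalised CPM at day 3, against 13.7, 18.1 and 20.6 at day 1. Rps29, a small zinc-binding protein of the head of the small subunit, had 146, 124, 78.8, 130 and 117 normalised CPM at day 3, against 62.7, 69.8 and 58.8 at day 1. Neither gene had overlapping groups, and in both day 3 c was the lowest of its group. Their log2 fold changes were 1.04 ± 0.26 and 0.90 ± 0.21, with edgeR adjusted p of 0.084 and 0.083 and DESeq2 adjusted p of 0.0041 and 0.0055. Rpl36a, a protein of the large subunit on the X chromosome, had 68.8, 56.5, 51.7, 49.0 and 54.6 normalised CPM at day 3, against 21.7, 33.4 and 37.5 at day 1, again without overlap. Its log2 fold change was 0.86 ± 0.24 (adjusted p 0.0998 in edgeR and 0.018 in DESeq2). Rpl22, which is known for its need in the development of mouse T cells, had 48.6, 41.9, 26.2, 29.5 and 34.6 normalised CPM at day 3, against 6.70, 24.0 and 28.2 at day 1. Here day 1 c lay inside the day 3 range and day 1 a far below the other 7, and the log2 fold change, 0.88 ± 0.44 with an edgeR adjusted p of 0.38, became 0.45 without day 1 a.

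The other 11 genes called by DESeq2 included Rpl37a, Rpl37, Rps14, Rplp1, Rpl23, Rps4x, Rpl34, Rpl31 and Rps18, with log2 fold changes from 0.49 to 0.82. Each of those named was also among the 23 genes without overlap. Rps14, whose loss of 1 copy underlies the anaemia of the human 5q- syndrome, was abundant among them, with 592, 546, 412, 506 and 482 normalised CPM at day 3 and 236, 320 and 352 at day 1. The lowest day 3 library, day 3 c, stood clear of the highest of day 1, day 1 c. The log2 fold change was 0.75 ± 0.19, with an adjusted p of 0.084 in edgeR and 0.0055 in DESeq2. With each library left out in turn, edgeR called none of the 79 either.

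The starts of the genes at either end of the fold changes are shown because the TOP tract begins at the first base of the mRNA. Each line gives 20 bases before and 20 bases from the annotated gene start, 5′ to 3′ on the gene's strand, from RefSeq on GRCm38.p6, with capitals for the C and pyrimidine run nearest the start (a C and at least 4 more C or T, beginning within 10 bases of it). The first 4 had high fold changes, the next is Rps6, and the last 4 had negative ones.
Rps27, chr3:90213629-90213668, minus strand: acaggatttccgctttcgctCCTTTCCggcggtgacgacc
Rpl35, chr2:39005112-39005151, minus strand: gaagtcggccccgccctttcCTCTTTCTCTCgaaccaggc
Rps21, chr2:180257359-180257398, plus strand: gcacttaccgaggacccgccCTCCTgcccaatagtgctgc
Rpl37a, chr1:72711240-72711279, plus strand: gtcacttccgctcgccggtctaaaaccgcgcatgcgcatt
Rps6, chr4:86857348-86857387, minus strand: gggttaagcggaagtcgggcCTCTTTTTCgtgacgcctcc
Rpl7a, chr2:26910787-26910826, plus strand: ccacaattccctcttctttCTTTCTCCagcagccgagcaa
Rps2, chr17:24720043-24720082, plus strand: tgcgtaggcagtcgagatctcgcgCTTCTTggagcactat
Rpl10, chrX:74270796-74270835, plus strand: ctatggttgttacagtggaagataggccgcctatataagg
Rpl7l1, chr17:46782637-46782676, minus strand: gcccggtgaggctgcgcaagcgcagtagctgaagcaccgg

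In Rps27, Rpl35, Rps21 and Rps6 the capitals begin exactly at the annotated start, and in Rpl7a 1 base before it. In each of these genes pyrimidines also stand directly before the capitals, which by the rule begin at the C nearest the start. In Rpl10, Rpl7l1 and Rpl37a no such run begins within 10 bases. RefSeq windows were matched for 58 of the 79 genes. A run at the start itself, whatever base stood before it, was found in 12 of the 58 (20.7%), against 3.01% of 27025 genes with a window. A run beginning within 10 bases was found in 35 (60.3%), against 34.4%. These starts are annotated, and the first base of each mRNA was not measured here, so a gene without the run may still have a TOP tract. The 12 genes with the run at the annotated start had a median log2 fold change of 0.48, and the other 46 a median of 0.38. With or without the run the genes spanned a wide range, -0.03 to 1.17 in the 12 and -0.47 to 0.88 in the 46. In the 300 bases around the start (250 before and 50 after), read on both strands, the core of ETS factor sites, CCGGAA, was found in 33 of 58 genes (56.9%), against 16.7% of all genes. The GC box, GGGCGG, was found in 63.8%, against 38.2%. The TATA box, TATAAA, was found in 12.1%, against 15.7%. The median log2 fold change was 0.38 both in the 33 genes with the ETS core and in the 25 without it.

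The small subunit's mRNA took a larger share of the sum at day 3. The ratio of summed normalised CPM, small over large, was 0.747, 0.761, 0.749, 0.742 and 0.744 in day 3 a to e, against 0.674, 0.699 and 0.71 in day 1 a to c. Every day 3 library was above every day 1 library, day 1 c included. The mean was 0.749 ± 0.007 at day 3 (SD, n = 5) and 0.694 ± 0.018 at day 1 (SD, n = 3). With each gene divided by the length of its counted exons the ratio was 0.727 ± 0.009 at day 3 and 0.688 ± 0.005 at day 1, again without overlap. The small subunit summed to 5565 ± 638 normalised CPM at day 3 and 4047 ± 833 at day 1, a ratio of 1.38, and the large subunit to 7433 ± 839 at day 3 and 5812 ± 1060 at day 1, a ratio of 1.28. Of the day 3 minus day 1 difference of 1518 CPM in the small subunit, Rps14 gave 13.5% and Rps27 11.3%, while to the difference of 1622 CPM in the large subunit Rpl10 gave -3.16% and Rpl7l1 -2.35%.

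**Figure D3:**
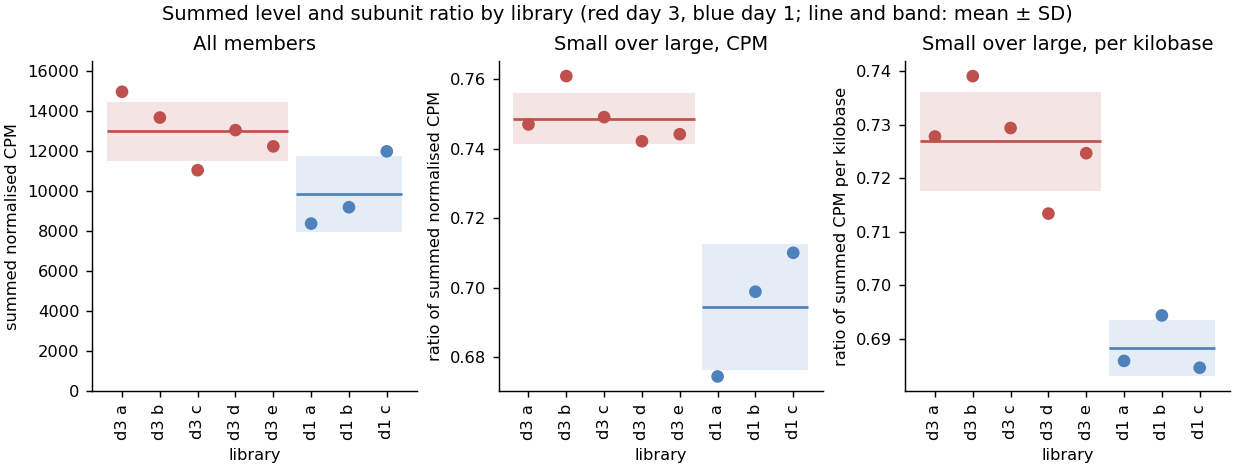
Summed normalised CPM of the 79 genes (left), and the ratio of the small to the large subunit's sum in CPM (middle) and in CPM per kilobase (right), by library, with the 5 day 3 libraries left of the 3 day 1 libraries and lines and bands for mean ± SD; the 2 ratio axes do not start at 0. The sums overlap through day 1 c, and both ratios are higher in each day 3 library than in each day 1 library.

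Taken by medians rather than sums, the subunits differed as follows. The median log2 fold change was 0.41 over the 32 small subunit genes and 0.36 over the 47 large subunit genes, a difference of 0.06. The difference was 0.095 with limma voom and -0.02 without day 1 c. In each library, the small subunit's median relative level (log2, each gene minus its mean over the libraries) was set against that of the large. Small minus large was 0.046, 0.047, 0.044, 0.016 and -0.007 in day 3 a to e. In day 1 a to c it was -0.042, -0.081 and 0.049, so the groups overlapped and day 1 c was the highest. Of the small subunit 31 genes had positive fold changes and 1, Rps2, a negative one. Of the large subunit 40 were positive and 7 negative. DESeq2 called 7 small subunit genes and 9 large subunit genes, all higher.

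Of the 6 lowest fold changes, 4 belonged to genes whose highest level was in day 1 c and turned positive without that library. Rpl10, the large subunit protein that joins late and sits near the catalytic centre, had 324, 332, 231, 284 and 277 normalised CPM in day 3 a to e, against 224, 290 and 508 in day 1 a to c. Rps2, a protein at the mRNA entry of the small subunit, had 205, 205, 146, 207 and 189 normalised CPM at day 3, against 175, 158 and 312 at day 1. In both, day 1 c was above all other libraries and day 1 a and b lay at or below the middle of day 3, apart from day 1 b of Rpl10. The log2 fold changes of -0.23 ± 0.26 for Rpl10 and -0.18 ± 0.24 for Rps2 became 0.17 and 0.19 without day 1 c. Rpl7a and Rpl8, both large subunit proteins, also had their highest value in day 1 c, with -0.16 ± 0.20 and -0.11 ± 0.21, and 0.06 and 0.07 without day 1 c. The edgeR adjusted p of these 4 genes lay between 0.74 and 0.87.

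Day 1 c did not simply resemble day 3. It was above every day 3 library in 19 genes, among them Rpl13, Rpl14, Rpl18, Rpl29, Rps13 and Rpsa. It was inside the day 3 range in 35 genes and below every day 3 library in 25, among them Rps27, Rpl35, Rps29, Rpl37 and Rplp1. Of the 79 genes 67 were higher in day 1 c than in day 1 a and b, and 8 were lower in day 1 c than in both. By contrast, day 1 a was below every day 3 library in 64 genes and day 1 b in 68. For these counts by single day 1 library, the share over all genes was not worked out. Rpsa, a small subunit protein also known as a laminin receptor, had 90.9, 66.3, 61.8, 72.2 and 62.5 normalised CPM at day 3, against 47.0, 44.6 and 109 at day 1. That gave a log2 fold change of 0.08 ± 0.31, and 0.63 without day 1 c.

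**Figure D4:**
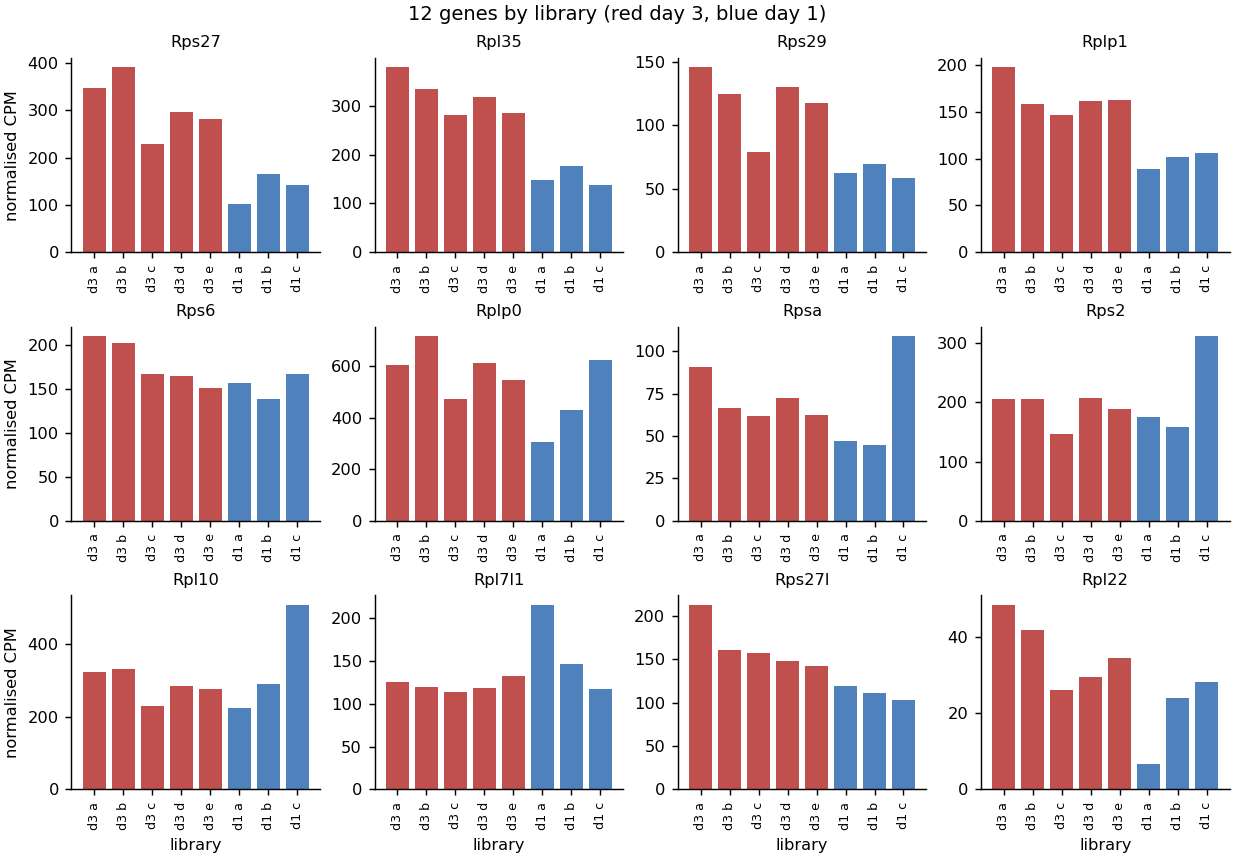
Normalised CPM of 12 genes in each library, day 3 (red) left of day 1 (blue), each panel starting at 0. Rps27, Rpl35, Rps29, Rplp1 and Rps27l have every red bar above every blue bar, while in Rpsa, Rps2 and Rpl10 day 1 c is the tallest bar.

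The other 2, Rpl7l1 and Rpl13a, had negative log2 fold changes whichever library was left out. Rpl7l1, a relative of Rpl7 that is known to act on large subunit precursors in the nucleolus, had 125, 120, 114, 118 and 132 normalised CPM at day 3, against 215, 147 and 117 at day 1. Day 3 was tight and day 1 a was far above it, while day 1 c lay within day 3. The fitted log2 fold change was -0.39 ± 0.20 (edgeR adjusted p 0.38), -0.57 without day 1 c and -0.14 without day 1 a. Rpl13a had 5.09, 4.55, 3.86, 4.77 and 5.34 normalised CPM at day 3, against 6.70, 5.92 and 6.97 at day 1, so that no day 3 library reached day 1. For Rpl13a the log2 fold change was -0.47 ± 0.51 (edgeR adjusted p 0.74), between -0.53 and -0.40 when each library was left out. It had the lowest level of the 79, and 35.4% of its counted exon bases are shared with other genes.

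The 3 proteins of the stalk, which draws elongation factors to the large subunit, had log2 fold changes from 0.21 to 0.74. Rplp1 had 198, 159, 147, 162 and 163 normalised CPM at day 3, against 89.3, 102 and 105.8 at day 1, without overlap. For Rplp1 the log2 fold change was 0.74 ± 0.16, with an adjusted p of 0.083 in edgeR and 8.2e-04 in DESeq2. Its partner Rplp2 had 66.5, 78.2, 50.5, 77.2 and 77.2 normalised CPM at day 3, against 52.3, 43.6 and 85.7 at day 1, with day 1 c above all other libraries. The base of the stalk, Rplp0, had 606, 718, 473, 612 and 548 normalised CPM at day 3, against 307, 429 and 624.8 at day 1. Rplp2 and Rplp0 had log2 fold changes of 0.21 ± 0.26 and 0.38 ± 0.24 (edgeR adjusted p 0.77 and 0.50), and 0.54 and 0.68 without day 1 c. The differences between the 3 genes were not tested.

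Rps6, the small subunit protein phosphorylated by S6 kinase downstream of mTORC1, had 210, 203, 166, 164 and 151 normalised CPM at day 3, against 156, 138 and 167 at day 1. The groups overlapped, and its log2 fold change was 0.22 ± 0.17 (edgeR adjusted p 0.60). Rps19, the gene most often mutated in human Diamond-Blackfan anaemia, had 360, 344, 227, 291 and 296 normalised CPM at day 3, against 147, 193 and 284 at day 1, overlapping through day 3 c and day 1 c. The log2 fold change of Rps19 was 0.55 ± 0.24 (edgeR adjusted p 0.31), and 0.84 without day 1 c. Rpl5 and Rpl11 join the ribosome together with 5S RNA and bind Mdm2 when ribosome assembly is disturbed. Rpl5 had 186, 176, 164, 172 and 147 normalised CPM at day 3, against 123, 130 and 143 at day 1, just without overlap. Rpl11 had 135, 118, 93.4, 108 and 102 at day 3, against 103, 92.5 and 114 at day 1, with overlap. Their log2 fold changes were 0.36 ± 0.15 and 0.11 ± 0.17, with edgeR adjusted p of 0.28 and 0.84.

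Of the genes that carry the name of another member with an added l or l1, 4 had a mean of 5 CPM or more. Rps27l, a close relative of Rps27 that p53 induces in human cells, had 213, 160, 157, 148 and 142 normalised CPM at day 3, against 119, 111 and 102 at day 1, without overlap. Its log2 fold change was 0.56 ± 0.18 (edgeR adjusted p 0.15), beside 1.17 ± 0.23 for Rps27. Rpl22l1, which can take the place of Rpl22, had 25.8, 24.6, 22.6, 18.4 and 18.9 normalised CPM at day 3, against 24.97, 16.5 and 18.6 at day 1. The 2 groups covered nearly the same range, and its log2 fold change was 0.14 ± 0.28, beside 0.88 ± 0.44 for Rpl22. Rpl7, the parent of Rpl7l1, had 330, 313, 288, 283 and 303 normalised CPM at day 3, against 253, 203 and 292 at day 1, and a log2 fold change of 0.28 ± 0.16. Rps4x, on the X chromosome, had 201, 198, 158, 191 and 188 normalised CPM at day 3, against 91.9, 127 and 143 at day 1, without overlap. Its log2 fold change was 0.64 ± 0.18, and that of Rps4l, which varied from 1.03 normalised CPM in day 1 b to 10.2 in day 1 c, was 0.31 ± 0.69. No difference between a parent and its relative was tested.

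Genes with short coding sequences had the higher fold changes. The 10 genes coding for fewer than 300 bases, which include Rps27, Rps21, Rps29, Rpl37a, Rpl37 and Rpl41, had a median log2 fold change of 0.66 and ranged from 0.47 to 1.17. The median was 0.47 in the 28 genes of 300 to under 450 bases, 0.35 in the 17 genes of 450 to under 600 bases, and 0.25 in the 23 genes of 600 bases or more. Across the 78 genes with a coding length, Spearman's rho between length and log2 fold change was -0.51, and it stayed between -0.55 and -0.41 when each library was left out. In other genes longer coding sequences also went with lower fold changes. Those of up to 1257 bases, the longest coding sequence of the members, with a mean of 5 CPM or more (3876 genes) gave a rho of -0.20, and their medians in the same 4 classes were 0.35, 0.26, 0.08 and -0.04. In the 77 mitochondrial ribosomal proteins tested rho was -0.02. These are relations across genes measured in the same 8 libraries, and genes are not independent replicates.

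The length classes differed most in day 1 c. The median relative level of the 10 shortest (log2, each gene minus its mean over the libraries) was 0.57, 0.42, -0.12, 0.35 and 0.20 in day 3 a to e, and -0.54, -0.41 and -0.48 in day 1 a to c. In the 23 longest the median was 0.29, 0.16, -0.07, 0.11 and -0.01 in day 3 a to e, and -0.42, -0.28 and 0.25 in day 1 a to c. By class median the shortest genes thus put all 3 day 1 libraries below all 5 day 3 libraries. For the longest, day 1 c ranked just behind day 3 a. Gene by gene, 6 of the 10 shortest were separated in this way, against 7.98% of genes with a mean of 5 CPM or more. Among the short genes that overlapped, Rpl39 had its highest value, 29.4 normalised CPM, in day 1 c. GC content and the share of a transcript's 75-base windows found in other genes' transcripts had weaker relations with the fold change, rho -0.17 and -0.23 over 78 genes.

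**Figure D5:**
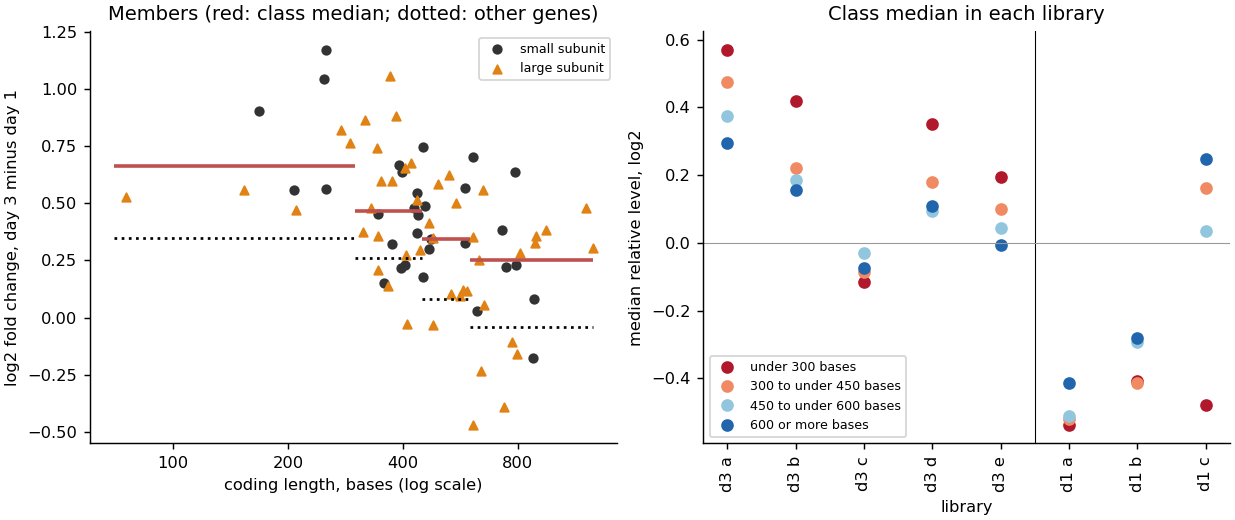
Left, log2 fold change of each gene (day 3 minus day 1) against its coding length in bases on a log scale, with the median of each of 4 length classes in red and that of other genes of the same length in dotted black; right, the median relative level (log2) of each length class in each library, day 3 left of day 1. The class medians go down with length, and in day 1 c the shortest class is at -0.48 while the longest is at 0.25.

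Levels per kilobase of counted exon differed widely between genes whose proteins are mostly needed in equal numbers. The counted length takes in all annotated exons of a gene and can exceed the mRNA. It was 6270 bases for Rps15a, with a principal transcript of 640, and 499 for Rplp1, with a transcript of 499. The part of this length in the spread and order of the levels was not tested. They ran from 2.55 CPM per kilobase for Rpl13a to 325 for Rplp0, with a median of 67.1, and 40 of the 79 were within a factor of 2 of the median. The median was 87.5 CPM per kilobase for the small subunit and 64.9 for the large. In the large subunit the highest levels were those of Rplp0, Rpl32, Rplp1 and Rpl4, with 356, 362, 332 and 298 CPM per kilobase at day 3, and 273, 231, 198 and 241 at day 1. In the small subunit Rps27, Rps14 and Rps27l were among the highest, with 296, 212 and 201 CPM per kilobase at day 3, and 131, 126 and 136 at day 1. The order of the genes was much the same at both times (Spearman's rho 0.98 across 79 genes). Rpl4, which lines the exit tunnel, had 729.8, 568.3, 541, 589 and 560 normalised CPM at day 3 and 497, 498 and 458 at day 1, without overlap, with 0.30 ± 0.15 as its log2 fold change and 0.37 as its edgeR adjusted p. The log2 fold change of Rpl32 was 0.65 ± 0.23, with an edgeR adjusted p of 0.19.

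Some core genes were almost uncounted. Rps10, a protein of the small subunit's head, had a mean of 0.271 CPM and Rpl24, a protein that reaches from the large subunit to the small, 1.33 CPM, and so fell below the minimum of 5 CPM. Of the 75-base windows of their transcripts 80.9% and 76.8% occur in transcripts of other genes, and 28.7% and 47.0% of their counted exon bases lie in overlapping genes. High sharing did not always go with a low level: 98.5% of the windows of Rps27 and 91.9% of those of Rpl10 were shared, and across 78 genes the share and the level per kilobase had a rho of -0.10. The part of sharing in the low counts of single genes was not tested. The other 8 genes below the minimum, Rpl10l, Rpl3l, Rpl39l, Rpl6l, Rpl32l, Rps12l1, Rps3a2 and Rps3a3, averaged between 0 and 0.810 CPM. Just above it were Rpl13a with 5.39, Rps4l with 6.69 and Rps12 with 19.3 CPM.

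Lists of other genes of ribosome making and translation had median log2 fold changes from -0.50 to 0.42. With its usual filter edgeR called no gene of these lists. Without a filter it called 2 mitochondrial ribosomal proteins higher, and 3 initiation factors, 3 regulators and 1 gene of the polymerase III and nucleolar stress list lower, and with the stricter filter 1 initiation factor and 1 gene of that last list lower. Of the 15371 genes of the usual filter, edgeR called 209 higher and 690 lower without a filter. With the stricter filter it called 63 higher and 83 lower. Over all genes DESeq2 called 2.48% higher and 4.29% lower. The 77 mitochondrial ribosomal proteins had a median log2 fold change of 0.42, with 61 positive, and DESeq2 called 4 higher, among them Mrpl42 (1.10 ± 0.32) and Mrps14 (0.82 ± 0.18), and 1 lower. The 57 ribosome biogenesis factors had a median of 0.12, with 34 positive, and DESeq2 called 1, Nop10 of the H/ACA particles that modify ribosomal RNA, higher (0.85 ± 0.21). Nucleolin (Ncl) and Sbds, the most abundant of them, had 0.27 ± 0.20 and 0.40 ± 0.27. The 20 translation factors and other genes with TOP mRNAs had a median of 0.09, and DESeq2 called 1, Eif3e, higher (0.67 ± 0.18). Eef1a1, the factor that brings aminoacyl-tRNA to the ribosome and a TOP mRNA itself, averaged 1116 ± 55 normalised CPM at day 3 and 1123 ± 296 at day 1, a log2 fold change of -0.01 ± 0.18.

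The 31 initiation factors had a median of -0.09, and DESeq2 called 3, all lower: Eif3b (-2.18 ± 0.51), Eif2b5 (-1.46 ± 0.30) and Eif4g2 (-0.60 ± 0.16). Their most abundant members were Eif4a1 with -0.28 ± 0.16 and Eif5 with 0.24 ± 0.28. The 20 regulators of ribosomal protein synthesis had a median of -0.18, and DESeq2 called 3, all lower: Mxd1, an opponent of MYC (-1.41 ± 0.32), Max, their shared partner (-1.27 ± 0.28), and Ddit4, an inhibitor of mTORC1 (-2.43 ± 0.67). Ddit4 had 4.18, 16.2, 6.45, 11.8 and 7.20 normalised CPM in day 3 a to e, against 11.3, 27.8 and 109.8 in day 1 a to c. Day 1 a thus lay inside the day 3 range, and without day 1 c the log2 fold change was -1.11 ± 0.59. Mxd1 averaged 283 ± 129 normalised CPM at day 3 and 752 ± 199 at day 1. Rheb, the activator of mTORC1, had 0.07 ± 0.28. The 12 genes of RNA polymerase III and nucleolar stress had a median of -0.50, DESeq2 called 1, Pias4, lower (-1.84 ± 0.32), and the abundant Cdkn1a and Mdm2 had -0.23 ± 0.19 and -0.66 ± 0.37. Outside the symbol rule, 4 other cytosolic ribosomal proteins were tested, 3 with a positive and 1 with a negative log2 fold change. The negative one, not named here, was the largest change of the 4, at -1.32. In it every day 3 library was below every day 1 library, against 8.76% of all genes tested. Neither edgeR nor DESeq2 called any of the 4. Of the positive ones, Fau had 245 ± 46 normalised CPM at day 3 and 193 ± 58 at day 1 (0.35 ± 0.22). Rack1 had 154 ± 7 at day 3 and 143 ± 29 at day 1 (0.11 ± 0.16). Rpl36al had 2.75 ± 0.97 at day 3 and 2.51 ± 0.99 at day 1 (0.13 ± 0.79).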

How the data were processed

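What the authors deposited are raw counts, 1 row for each gene and 1 column for each library. Per the file headers, featureCounts 1.6.0 made them on Ensembl release 106 of GRCm39, with no option for strand, read pairs or reads with several positions, so overlapping genes cannot be told apart by strand and reads shared with copies may be missing from a gene. Most low counts were even. Counting the reads of a pair singly would give this, but the read layout is not stated and the cause was not tested. The submitters' processing notes also name Trimmomatic and DESeq2; no aligner is given in the sources used here.

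Of 55414 gene IDs, 52081 were given a symbol from the reference name table. Genes kept by filterByExpr (minimum count 10) were scaled by TMM, and differences were tested by the quasi-likelihood F test of edgeR 4.0.16 (two-sided, threshold 0.05 after Benjamini-Hochberg adjustment over all 15371 genes), the 5 day 3 against the 3 day 1 libraries, in R 4.3.3. Fold changes are log2 day 3 minus day 1 ± SE, and levels are normalised CPM. The SE was worked out as the absolute log2 fold change divided by the square root of the F value of edgeR. DESeq2 1.42.0, limma 3.58.1 (voom), other scalings, no filter, a stricter filter (a mean of 5 CPM, with 1 CPM or more in all libraries of either day), each library left out and a replicate block were alternatives. The edgeR step was tested on simulated data. Summaries and figures were made in Python 3.11.15 with pandas 2.3.3, scipy 1.17.1 and matplotlib 3.10.9. Coding lengths and shared 75-base windows come from GENCODE M21 transcripts (GRCm38). Floors and counts cover counting error only: 3 counts, the floor used for markers, equal between 0.0498 and 0.0722 CPM.

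The members, gene lists, marker lists and named genes were chosen with earlier results of these data known. Named genes were the 6 highest and 6 lowest fold changes, the 4 highest levels per kilobase in each subunit, paralogue pairs, 8 genes of known special roles, called genes (or the 2 most abundant) of each list, and the genes next to the 5 CPM minimum. Genes given as called by DESeq2, and those given as examples of the pattern in day 1 c, were chosen after their values were seen. Some items that this rule names are not reported here.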

Additional observations from a re-analysis of the deposited data

Results flagged for a closer look

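In 3 of 41 sets of 5 day 3 values, a library stood apart from the other 4 by more than Dixon's critical share of the whole range; chance gives about 1 such set in 20. In each of them it was day 3 a, the library with the highest summed ribosomal protein level. Day 3 a also had the most genes with any count of its group, 20557 against 14952 to 15359 in day 3 b to e. The part of either trait was not tested. Rpl4 had 729.8 normalised CPM in day 3 a, where the next highest day 3 library had 589. Rps27l had 213 normalised CPM in day 3 a, and 160 in the next highest. The summed level of the annotated ribosomal protein pseudogenes was 68.6 normalised CPM in day 3 a and 44.8 to 51.3 in the other 4, and day 1 a to c had 105, 65.3 and 64.7.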

How the results depend on the processing

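The number of the 79 genes called was 0 in the main test, 16 with DESeq2, 8 with limma voom, 4 with no filter and 2 with the stricter filter, all higher at day 3; it was 0 with each other scaling tried, with members of at least 50 CPM, with paralogue forms left out and with each library left out (0 to 0). The median log2 fold change of 0.37 lay between 0.26 (without day 1 a) and 0.60 (without day 1 c) as each library was left out, and between 0.37 and 0.41 with the other tools, scalings, filters and choices of members. The small minus large difference in medians, 0.06, lay between -0.021 (without day 1 c) and 0.059 as each library was left out, and was 0.095 with limma voom and 0.040 with paralogue forms left out. The log2 ratio of the small to the large sum differed by 0.11 between the days (day 3 minus day 1), by 0.079 per kilobase, and by 0.09 to 0.12 as each library was left out. The count of 23 genes without overlap lay between 23 and 60 as each library was left out, an alternative chosen after seeing the data. The cause of these shifts was not tested. Whether letters a to c pair the samples is not stated, and they were used as names only. Libraries with the same letter correlated by 0.070, 0.008 and 0.057 in their deviations from the day mean. Those with different letters correlated by -0.107 to 0.055. With so few libraries these values cannot settle whether samples were paired. With the 3 libraries of each day that share letters, 0 genes were called with or without a replicate block, and the median was 0.45 with it and 0.43 without. Of 540 single-gene values under alternatives, 513 kept their direction and side of the threshold, 18 passed it, and 9 changed sign without passing it: Rpl8, Rpl7a, Rps2 and Rpl10 without day 1 c, Rpsa without day 1 a, day 1 b or day 3 a, Rps4l without day 1 b, and Rps12 without day 1 a. Without a filter the median of all genes was -1.40, since many barely counted genes entered.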
